A study of Arabidopsis thaliana with 12 samples.

Results

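Untreated wild-type Arabidopsis thaliana carried 65 genes whose RNA stood at least 2-fold higher than in treated wild-type plants and in the mutant with or without treatment, while those other 3 groups stood close together. Messenger RNA came from whole plants, 2 weeks old and grown in soil, in 4 groups of 3 libraries. Wild-type Col-0 plants and plants of rdd, a triple mutant made in Col-0 that is named for its DNA demethylases (ROS1, DML2 and DML3), were each grown in regular soil (untreated) or in soil with YC4-R4 (treated). The labels call the replicates biological, name no promoter or clone, and give no tray, day or hour of harvest, so a difference shared by a whole group cannot be told apart from its genotype or treatment. The series title speaks of beneficial rhizobacteria and myo-inositol. All levels are CPM, the count of a gene scaled to a library total of 1000000 counts, and errors are SDs over 3 libraries.

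The genes were chosen from these CPM alone. A gene entered when its mean in untreated Col-0 was at least 2 CPM and at least 2-fold above each of the other 3 group means, and when the highest of those 3 means was at most 1.5 times the lowest. Of 33602 genes in the table, 17860 reached 2 CPM in untreated Col-0 and 71 of them (0.398%) met the rule. From these, WRKY33, WRKY70, CBP60G, SARD1, WRKY53 and ACS6 were set aside by name, which leaves 65 genes. A further 90 genes met the level and the fold but had other groups that differed by more than 1.5 times. AT1G72910 and AT1G72920, which the rule also leaves out by name, are not counted among these 90. Because the same counts chose the genes, their difference from the other groups is described here and not tested. In RNA from whole plants, fewer cells of a type and less RNA per cell cannot be told apart.

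Of the 65 genes, 10 are on the response lists counted here. They are 4 of 34 listed for touch and wounding, 3 of 31 for immunity, 1 of 20 for salicylic acid, 1 of 10 for cold and 1 of 10 for indole glucosinolates. The rule took 0.398% of all genes at 2 CPM or more. The lists were chosen with earlier results of these data known, so nothing is read from these counts. Plant cells switch on a class of genes within minutes of touch, wounding, cold or contact with a microbe. In that response, calcium enters the cell and is read by EF-hand proteins and calmodulin, protein kinases and phosphatases relay the signal, and transcription factors of the WRKY, MYB, NAC and AP2/ERF families are transcribed quickly and for a short time. WRKY factors bind the W box, with the core TTGAC, and calmodulin-binding transcription activators bind CGCG elements. Ubiquitin ligases of the U-box and RING types and TIR-domain resistance proteins are known from the same responses.

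Total counts of the 12 libraries ran from 14465710 to 20281801, and replicates differed by more than counting noise in every group. The demethylase genes did not follow the genotype labels. ROS1 averaged 77.5 ± 4.27 CPM in the libraries of untreated Col-0, 70.7 ± 1.71 in treated Col-0, 80.5 ± 2.41 in untreated rdd and 76.8 ± 2.03 in treated rdd. DML2 averaged 18.8 ± 0.538, 13.3 ± 1.41, 20.9 ± 2.21 and 13.9 ± 0.495 CPM in that order, and DML3 4.70 ± 0.728, 0.788 ± 0.410, 3.54 ± 0.130 and 0.616 ± 0.352. All 3 were lower in both treated groups than in untreated Col-0, and in untreated rdd only DML3 was (edgeR, adjusted p = 0.0431, log2 -0.50 ± 0.20, beside 0.521 for ROS1 and 0.665 for DML2). DESeq2 called 0 of the 3 lower in untreated rdd. Every direction given here is between libraries as labelled. The rule treats the 3 groups outside untreated Col-0 alike, so an exchange of labels among them would leave the same 65 genes.

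Leaf markers (LHCB3, RBCS1A and RCA) summed to between 20046 and 21090 CPM in untreated Col-0 and to between 16631 and 19089 CPM elsewhere, and all 3 were lower in each other group (edgeR, adjusted p under 0.05). The 10 root markers summed to between 83.4 and 87.5 CPM in untreated Col-0 and to between 85.9 and 103 CPM elsewhere. Of these 10, 1 was higher and 3 lower in treated Col-0, 6 higher and 1 lower in untreated rdd and 2 higher and 0 lower in treated rdd (edgeR, adjusted p under 0.05; 0 lower also at an unadjusted p under 0.05 and in DESeq2), with median log2 fold changes of -0.05, 0.62 and 0.16. The root hair gene RHD6 went from 0.813 ± 0.354 CPM in untreated Col-0 to 2.25 ± 0.389 in untreated rdd, and the iron transporter gene IRT1 from 1.70 ± 0.526 to 3.87 ± 0.430 (edgeR, highest adjusted p = 2.3e-04; both named after their values were seen). The 3 root markers of highest level did not rise in untreated rdd. SCR was lower (log2 -0.20 ± 0.07, edgeR, adjusted p = 0.0272), and PHT1;1 and SHR were not called (edgeR, adjusted p = 0.365 and 0.112). Over all genes tested, 16.9% were lower and 12.9% higher in treated Col-0, 23.0% and 20.9% in untreated rdd and 21.0% and 18.5% in treated rdd. The 5 floral markers summed to at most 3.38 CPM. The part of these markers in the results was not tested.

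**Figure D1:**
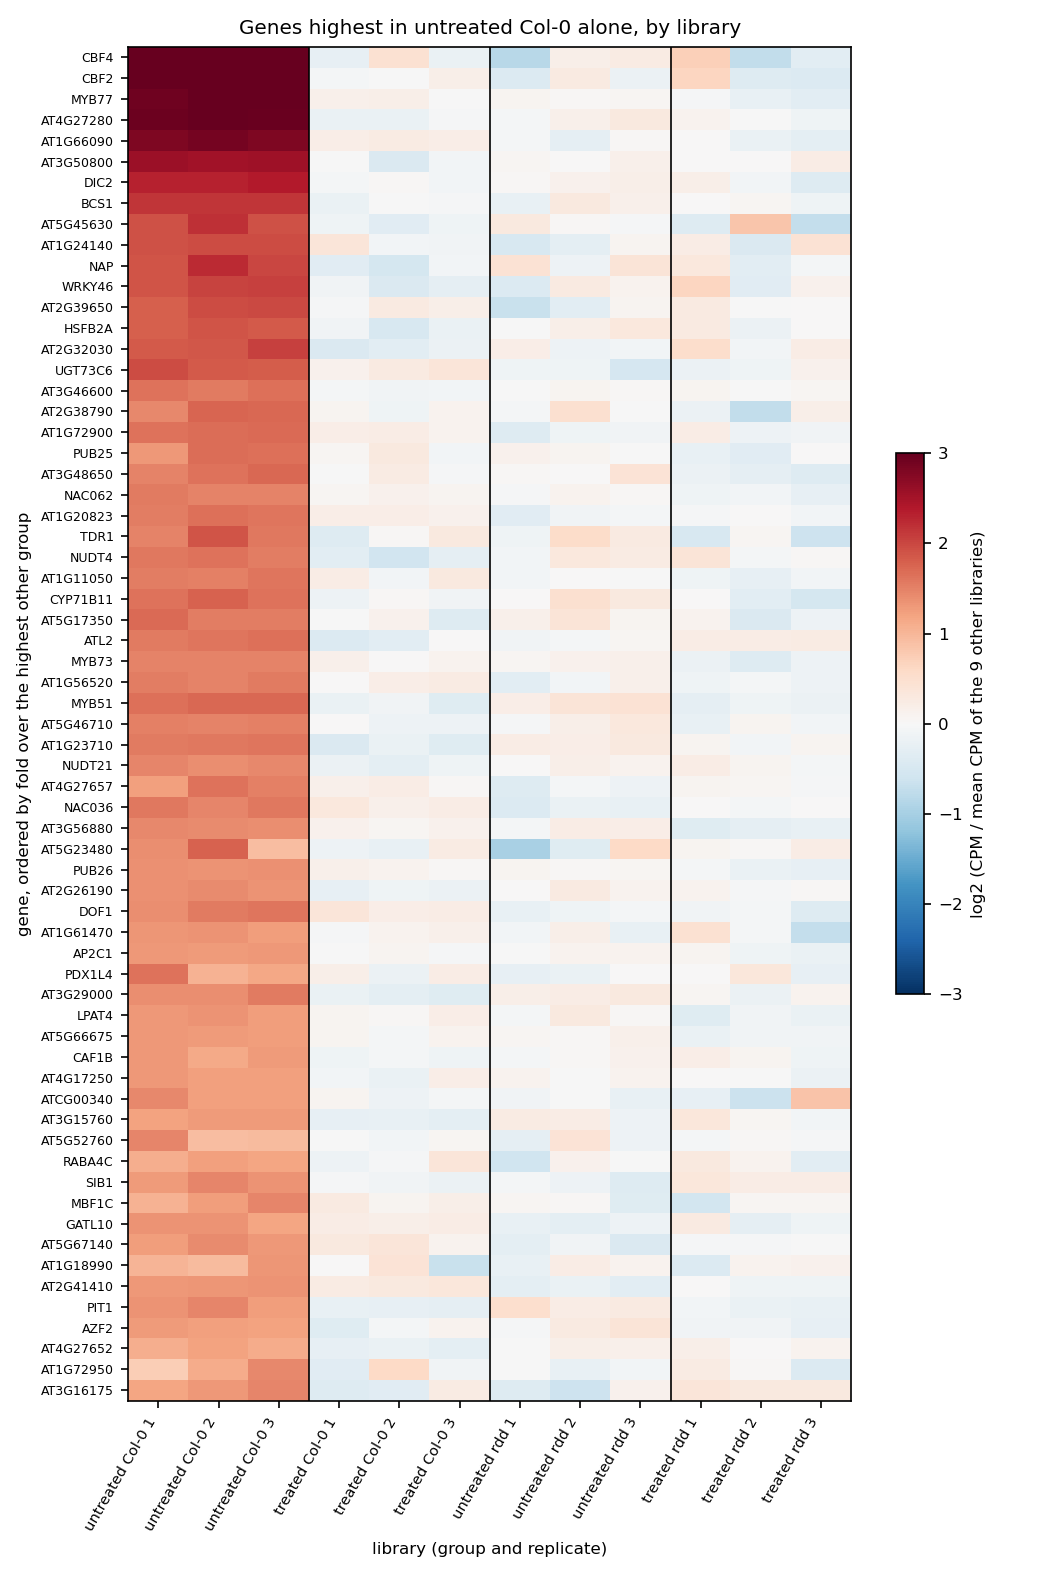
Level of each of the 65 genes (rows, ordered by fold over the highest other group) in each of the 12 libraries (columns), as the log2 ratio of its CPM to the mean CPM of the 9 libraries outside untreated Col-0. All 3 untreated Col-0 columns are red in every row, and the 9 other columns are pale, apart from single cells such as ATCG00340 in treated rdd replicate 3.

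Across the 65 genes, the untreated Col-0 mean was 2.55-fold above the highest other group mean in the median, with a range from 2.00 to 8.98. It was 4-fold or more in 8 genes, 3-fold or more in 16 and under 2.5-fold in 29. Levels in untreated Col-0 ran from 2.02 to 255 CPM with a median of 23.3, and 9 genes stood at 100 CPM or more. In all 65 genes the lowest untreated Col-0 library stood above the highest of the 9 other libraries, where 7.16% of the 17860 genes at 2 CPM or more did so. The rule used these same libraries, so nothing is read from that count. The gap between the lowest untreated Col-0 library and the highest other library was at least 2-fold in 42 of the 65 genes.

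Over the genes at 2 CPM or more, the median log2 ratio of untreated Col-0 to treated Col-0, untreated rdd and treated rdd was -0.10, -0.09 and -0.13 on this scale. With TMM or median-ratio factors, which centre on the bulk of genes, the folds of the 38 members named by level, fold or class were 1.07 to 1.09 times as large.

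The 3 other groups were not ordered the same way from gene to gene. The highest of them was untreated rdd in 29 genes, treated Col-0 in 25 and treated rdd in 11. Their highest mean was 1.26 times their lowest in the median. Summed over the 65 genes, the untreated Col-0 libraries stood at 3025, 3054 and 3073 CPM. The 9 other libraries lay between 882 and 1023 CPM in sum, with treated rdd replicate 2 lowest and untreated rdd replicate 2 highest.

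Within untreated Col-0 the 65 genes varied little, and no library carried the difference. The highest of the 3 was replicate 1 in 17 genes, replicate 2 in 24 and replicate 3 in 24. The median coefficient of variation of the 65 genes was 4.23% in untreated Col-0, beside 5.14% for all genes at 2 CPM or more. In the other groups the rule holds the 65 genes to lower levels, and fewer counts raise relative spread by themselves. There the 65 genes varied more than the genes at 2 CPM or more did. Their median was 7.12% beside 5.12% in treated Col-0, 11.4% beside 5.39% in untreated rdd and 10.15% beside 6.20% in treated rdd. Part of that spread was shared among the genes: their median deviation from the group mean was -0.09 log2 units in untreated rdd replicate 1 and 0.07 in treated rdd replicate 1.

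DNA-binding transcription factors were the largest group by role, with 15 of the 65 genes, and held the 3 highest folds. CBF2 and CBF4 encode AP2-type factors that bind the C-repeat of cold and drought genes, and MYB77 an R2R3 MYB factor known from auxin responses in lateral roots. CBF4 (AT5G51990, chromosome 5, 21116877 to 21117860 in TAIR10.1) had the largest fold, 8.98, at a low level.

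CBF2 (AT4G25470, chromosome 4, 13015250 to 13016235) stood at 17.4, 17.9 and 19.8 CPM in the 3 untreated Col-0 libraries, at 2.03, 2.09 and 2.38 in treated Col-0, at 1.59, 2.53 and 1.88 in untreated rdd and at 3.30, 1.60 and 1.58 in treated rdd. Its untreated Col-0 libraries lay far above all others, and the 3 other groups overlapped one another. The fold over the highest of them was 8.46. CBF4 stood at 3.60, 3.01 and 3.64 CPM in untreated Col-0, at 0.312, 0.507 and 0.322 in treated Col-0, at 0.207, 0.422 and 0.442 in untreated rdd and at 0.612, 0.221 and 0.297 in treated rdd. At this depth the 3 other groups held 19, 19 and 20 counts of CBF4 in all, so differences among them were not detectable.

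MYB77 (AT3G50060, chromosome 3, 18557607 to 18559326) stood at 106, 112 and 118 CPM in untreated Col-0, at 15.6, 15.9 and 14.0 in treated Col-0, at 15.1, 14.5 and 14.7 in untreated rdd and at 13.9, 12.1 and 11.4 in treated rdd. No other member had a wider gap between libraries, and the lowest untreated Col-0 library was 6.66-fold above the highest of the rest. MYB73 (AT4G37260, chromosome 4, 17540490 to 17541799), a close relative of MYB77, was the most highly counted member, at 255, 254 and 256 CPM in untreated Col-0, 101, 90.8 and 97.2 in treated Col-0, 94.4, 98.9 and 101 in untreated rdd and 80.3, 69.7 and 81.2 in treated rdd. Its treated rdd libraries lay below those of the other lower groups, without overlap. MYB51, which drives indole glucosinolate synthesis, stood at 51.1, 53.2 and 53.6 CPM in untreated Col-0, 14.0, 14.97 and 12.6 in treated Col-0, 18.7, 20.9 and 21.8 in untreated rdd and 13.4, 14.8 and 14.2 in treated rdd. Among its lower groups, untreated rdd was above both YC4-R4 groups in every library.

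WRKY46, a WRKY factor of defence and osmotic stress, stood at 21.6, 24.1 and 24.3 CPM in untreated Col-0, 5.45, 4.38 and 4.90 in treated Col-0, 4.42, 7.07 and 6.36 in untreated rdd and 9.23, 4.64 and 6.48 in treated rdd. Its treated rdd libraries were spread, with replicate 1 above every other library outside untreated Col-0. The fold was 3.44. The 3 NAC factors were NAC062, a membrane-bound factor released under stress, at 106 ± 3.06 CPM and 2.67-fold, NAP, a promoter of leaf senescence, at 13.9 ± 1.78 CPM and 3.48-fold, and NAC036 at 35.6 ± 1.505 CPM and 2.47-fold. The GRAS-family gene AT3G46600 was among the most abundant members, at 204 ± 7.63 CPM in untreated Col-0 beside group means of 62.6 to 68.4 CPM. Lower in level were HSFB2A, a heat shock factor of the repressor class B (21.4 ± 0.806 CPM, 3.18-fold), the PLATZ-type gene AT5G46710 (44.4 ± 0.455 CPM, 2.55-fold) and DOF1 (51.0 ± 3.71 CPM, 2.37-fold). AZF2, a zinc-finger repressor of the abscisic acid response, stood at 23.6 ± 0.716 CPM with a fold of 2.03, near the limit, and the AP2/ERF gene TDR1 at 2.17 ± 0.322 CPM with a fold of 2.65.

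Regulators that act with DNA-binding factors were 3. The VQ-motif protein gene AT3G56880 stood at 218, 216 and 211 CPM in untreated Col-0, 87.6, 83.7 and 88.4 in treated Col-0, 77.4, 94.4 and 92.4 in untreated rdd and 62.9, 67.1 and 69.1 in treated rdd. SIB1, a VQ protein that binds WRKY33, stood at 30.7, 34.9 and 32.3 CPM in untreated Col-0, 12.4, 11.9 and 11.3 in treated Col-0, 12.2, 11.6 and 9.73 in untreated rdd and 16.1, 14.8 and 14.9 in treated rdd. Of the lower groups, AT3G56880 was lowest and SIB1 highest in treated rdd. MBF1C, a coactivator of heat tolerance, had 7.53 ± 1.13 CPM and a fold of 2.13.

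**Figure D2:**
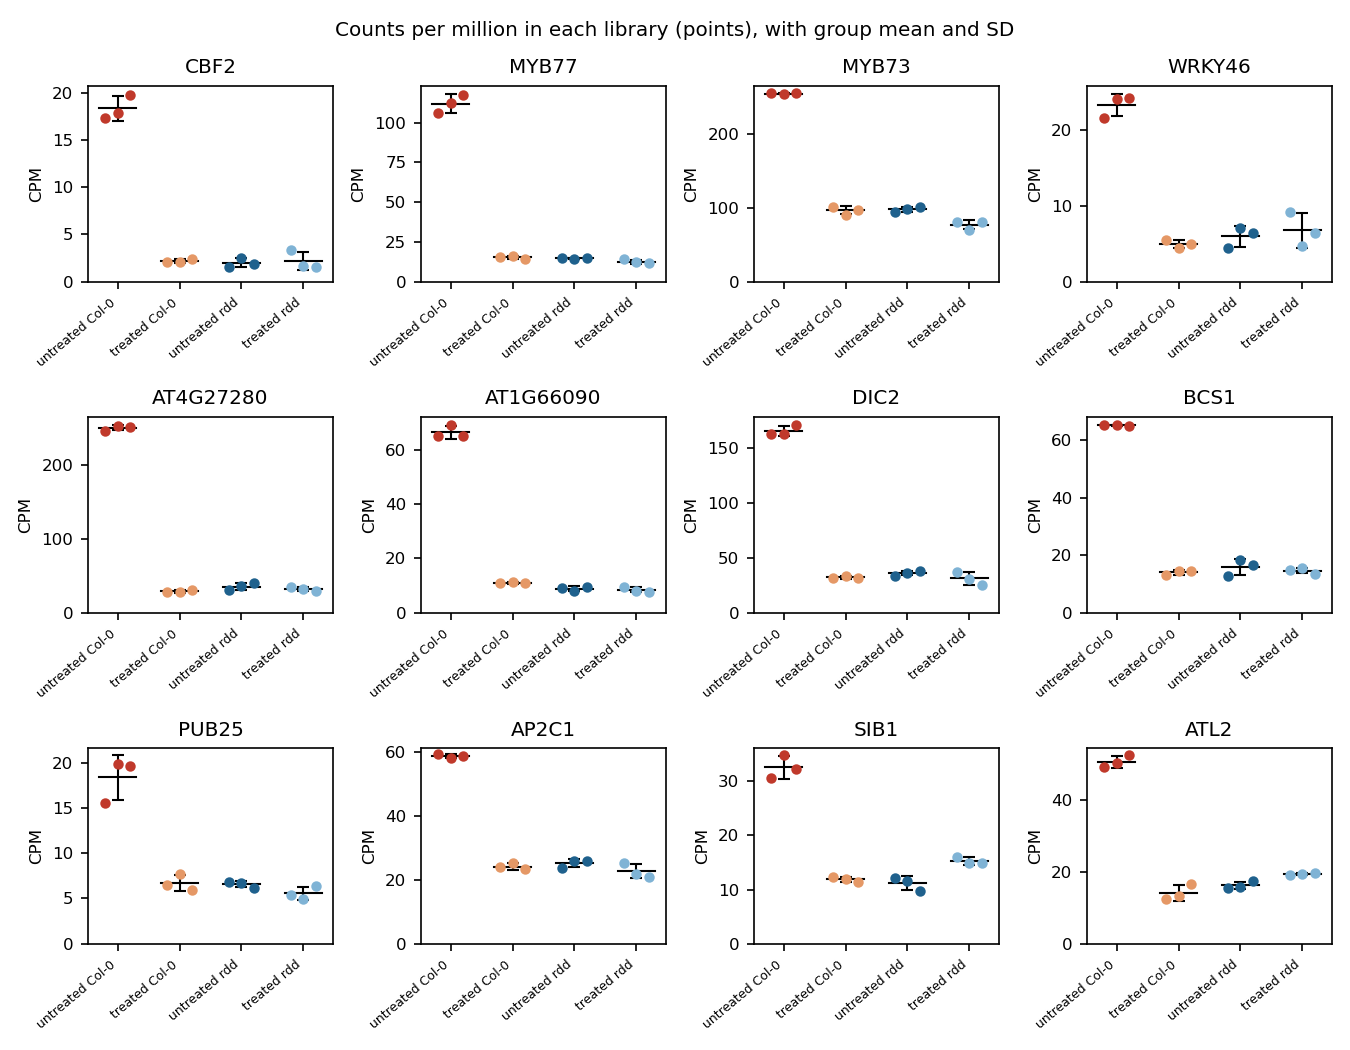
CPM in each library (points, 3 per group) for 12 of the 65 genes, with the group mean (horizontal line) and SD (bar) and each vertical axis starting at 0. In every panel all 3 untreated Col-0 points lie above the other 9, as for MYB73 at 254 to 256 CPM against 69.7 to 101 CPM.

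Calcium and calmodulin binding proteins numbered 4, and 3 of them were among the 10 most abundant members. AT4G27280 (chromosome 4, 13663415 to 13664621), an EF-hand protein gene, stood at 247, 253 and 252 CPM in untreated Col-0, 28.1, 27.8 and 31.1 in treated Col-0, 30.8, 35.5 and 39.4 in untreated rdd and 34.7, 31.8 and 29.5 in treated rdd. It was thus as abundant in untreated Col-0 as MYB73 in CPM, which are not scaled for gene length, and 7.10-fold above the highest other group. The calmodulin-binding gene AT2G26190 stood at 142, 148 and 141 CPM in untreated Col-0, 46.4, 50.2 and 49.0 in treated Col-0, 55.2, 66.3 and 59.0 in untreated rdd and 59.7, 53.9 and 56.9 in treated rdd. The EF-hand gene AT2G41410 stood at 130.4 ± 2.54 CPM with a fold of 2.04. Its treated Col-0 libraries (62.0, 63.7 and 66.5 CPM) lay above all 6 rdd libraries. AT3G29000, also an EF-hand gene, had 13.0 ± 0.888 CPM and a fold of 2.32.

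A kinase and a phosphatase were members. AP2C1, a type 2C phosphatase that inactivates MAP kinases, stood at 59.4, 58.3 and 58.8 CPM in untreated Col-0, 23.9, 25.2 and 23.3 in treated Col-0, 23.7, 25.96 and 25.8 in untreated rdd and 25.4, 21.9 and 21.0 in treated rdd, with the 3 lower groups overlapping. The genome holds copies of AP2C1 that are 90.3% and 90.9% identical over 1076 and 1075 bases, at AT3G27140 and AT2G05050, so its count is uncertain to that extent. The protein kinase gene AT1G11050 stood at 58.4 ± 2.16 CPM beside group means of 17.9 to 22.2.

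Ubiquitin ligases and an F-box protein made up 6 members. PUB25 and PUB26 encode a pair of similar U-box ligases known to act on the immune kinase BIK1. PUB25 stood at 15.6, 19.9 and 19.7 CPM in untreated Col-0, 6.54, 7.68 and 5.93 in treated Col-0, 6.84, 6.70 and 6.19 in untreated rdd and 5.38, 4.98 and 6.38 in treated rdd. PUB26 stood at 21.8, 21.3 and 21.7 CPM in untreated Col-0, 9.30, 9.07 and 8.57 in treated Col-0, 8.92, 8.60 and 8.73 in untreated rdd and 8.01, 7.30 and 7.07 in treated rdd. Both genes had the same order of groups, with treated rdd lowest by mean. ATL2, a RING ligase gene known to respond quickly to chitin, stood at 49.3, 50.3 and 52.6 CPM in untreated Col-0, 12.4, 13.3 and 16.7 in treated Col-0, 15.5, 15.9 and 17.4 in untreated rdd and 19.3, 19.4 and 19.6 in treated rdd, and here the treated rdd libraries were above the other 2 lower groups. The RING genes AT1G20823 and PIT1 stood at 31.4 ± 1.09 and 15.04 ± 1.10 CPM with folds of 2.67 and 2.04, and the F-box gene AT5G67140 at 5.95 ± 0.340 CPM with a fold of 2.09.

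Genes of TIR-domain proteins, the class that holds many intracellular immune receptors, numbered 4. AT1G66090 (chromosome 1, 24602033 to 24604763), annotated in the TIR-NBS class, stood at 65.2, 69.2 and 65.4 CPM in untreated Col-0, 10.8, 11.2 and 10.8 in treated Col-0, 9.06, 7.81 and 9.56 in untreated rdd and 9.48, 8.13 and 7.71 in treated rdd. Its treated Col-0 libraries lay just above the 6 rdd libraries, and its fold was 6.09. AT1G72900 stood at 74.7 ± 1.65 CPM with a fold of 2.80, and AT1G56520 at 34.99 ± 0.718 CPM with a fold of 2.57. AT1G56520 is 93.5% identical to WRR4 over 749 bases, so its reads may be shared with that copy. AT1G72950, near the limits on both level and fold, stood at 1.97, 2.53 and 3.19 CPM in untreated Col-0, 0.935, 1.78 and 1.10 in treated Col-0, 1.18, 1.003 and 1.11 in untreated rdd and 1.41, 1.22 and 0.890 in treated rdd. Its lowest untreated Col-0 library was only 1.11-fold above the highest other library, the narrowest gap of the 65 genes.

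Both mitochondrial membrane proteins were among the 8 genes of 4-fold or more. DIC2 (AT4G24570, chromosome 4, 12686459 to 12687650), a carrier of dicarboxylates across the inner membrane, stood at 163, 162 and 171 CPM in untreated Col-0, 31.6, 33.6 and 31.3 in treated Col-0, 33.7, 35.8 and 37.4 in untreated rdd and 36.9, 31.0 and 25.4 in treated rdd. BCS1 (AT3G50930, chromosome 3, 18929526 to 18932181), which encodes an AAA-type ATPase known as a stress marker of mitochondria, stood at 65.2, 65.5 and 65.03 CPM in untreated Col-0, 12.9, 14.6 and 14.4 in treated Col-0, 12.7, 18.2 and 16.6 in untreated rdd and 14.9, 15.4 and 13.6 in treated rdd. The 3 lower groups overlapped in BCS1. In DIC2 the treated rdd libraries overlapped both other lower groups, which did not overlap each other.

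Enzymes and proteins of transport and traffic were 13 members with folds from 2.00 to 3.54. The nudix hydrolases NUDT21 and NUDT4, which split nucleoside diphosphates linked to another group, stood at 90.3 ± 1.89 and 54.3 ± 1.90 CPM in untreated Col-0 beside group means of 29.1 to 35.8 and 14.0 to 20.5 CPM. AT1G24140, a gene of the matrixin family of metalloproteases, had the largest fold in this group and stood at 7.35, 7.54 and 7.51 CPM in untreated Col-0, 2.49, 1.84 and 1.80 in treated Col-0, 1.38, 1.58 and 2.05 in untreated rdd and 2.26, 1.44 and 2.62 in treated rdd. All its untreated Col-0 libraries were above the rest, and its 3 lower groups overlapped. The flavonol and brassinosteroid glucosyltransferase gene UGT73C6 stood at 13.6 ± 0.729 CPM, with a fold of 3.07, and the acyltransferase genes LPAT4 and AT2G32030 at 35.03 ± 1.07 and 6.85 ± 0.522 CPM, with folds of 2.29 and 3.18. The cell wall galacturonosyltransferase-like gene GATL10 had 34.0 ± 2.19 CPM (2.12-fold), and the cytochrome P450 genes CYP71B11 and AT3G15760 had 18.1 ± 0.954 and 16.2 ± 0.434 CPM (2.63- and 2.21-fold). The remaining members here were low in level: AT5G52760, annotated in copper transport, at 6.63 ± 1.48 CPM, the vesicle traffic GTPase gene RABA4C at 4.97 ± 0.221, PDX1L4 at 4.22 ± 0.964 and the thioesterase family gene AT3G16175 at 2.02 ± 0.197. PDX1L4 is 100% identical to PDX1.1 over 675 bases, UGT73C6 is 90.9% identical to its neighbour DOGT1 over 1697 bases and CYP71B11 is 92.2% identical to CYP71B12 over 1675 bases, so reads of these 3 genes may be shared with the copies.

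CAF1B, which shortens the poly(A) tail of messenger RNA, stood at 23.0 ± 1.42 CPM with a fold of 2.28. AT1G61470, annotated in the same superfamily of ribonuclease H-like proteins, stood at 5.45 ± 0.190 CPM with a fold of 2.36.

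The other 14 members have no named function in the annotation used or stand outside these roles. AT3G50800 (chromosome 3, 18882112 to 18883033), an uncharacterized gene, stood at 17.5, 16.7 and 17.0 CPM in untreated Col-0, 2.91, 2.16 and 2.77 in treated Col-0, 3.04, 2.96 and 3.26 in untreated rdd and 2.94, 2.93 and 3.41 in treated rdd, a fold of 5.51. It overlaps the gene AT3G50790, as 14 of the 65 genes overlap another annotated gene, and the strand setting of the counting is not given in the sources used here, so counts of these 14 are uncertain. AT2G39650 stood at 24.4 ± 1.80 CPM with a fold of 3.44, and AT5G45630, annotated as a senescence regulator, at 2.27 ± 0.273 CPM with a fold of 3.73. AT1G23710, AT5G66675, AT4G17250 and AT4G27652 had 59.9 ± 0.989, 56.7 ± 1.21, 32.6 ± 0.892 and 22.7 ± 0.924 CPM, with folds between 2.03 and 2.53. AT5G17350, AT2G38790, AT4G27657 and the transcribed pseudogene AT3G48650 lay between 10.4 and 17.8 CPM, with folds between 2.51 and 2.80. AT1G18990 and AT5G23480 lay at 3.31 ± 0.490 and 2.13 ± 0.604 CPM, with folds of 2.08 and 2.44.

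ATCG00340, which has no entry in the reference used, had 1 library outside untreated Col-0 that stood apart from its group. It stood at 25.6, 22.4 and 22.2 CPM in untreated Col-0, 10.13, 8.63 and 9.15 in treated Col-0, 8.92, 9.45 and 8.13 in untreated rdd and 8.07, 6.08 and 17.1 in treated rdd. In treated rdd replicate 3 it was more than 2 times as high as in the other libraries of that group. The 133 genes with IDs beginning with ATCG summed to 1.26% of the counts in that library, beside 1.205% to 1.33% in untreated Col-0 and 0.923% to 1.14% in the other 8 libraries, and ATCG00340 was the only member of the 82 among them at 2 CPM or more. The part of this summed share in its level was not tested.

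**Figure D3:**
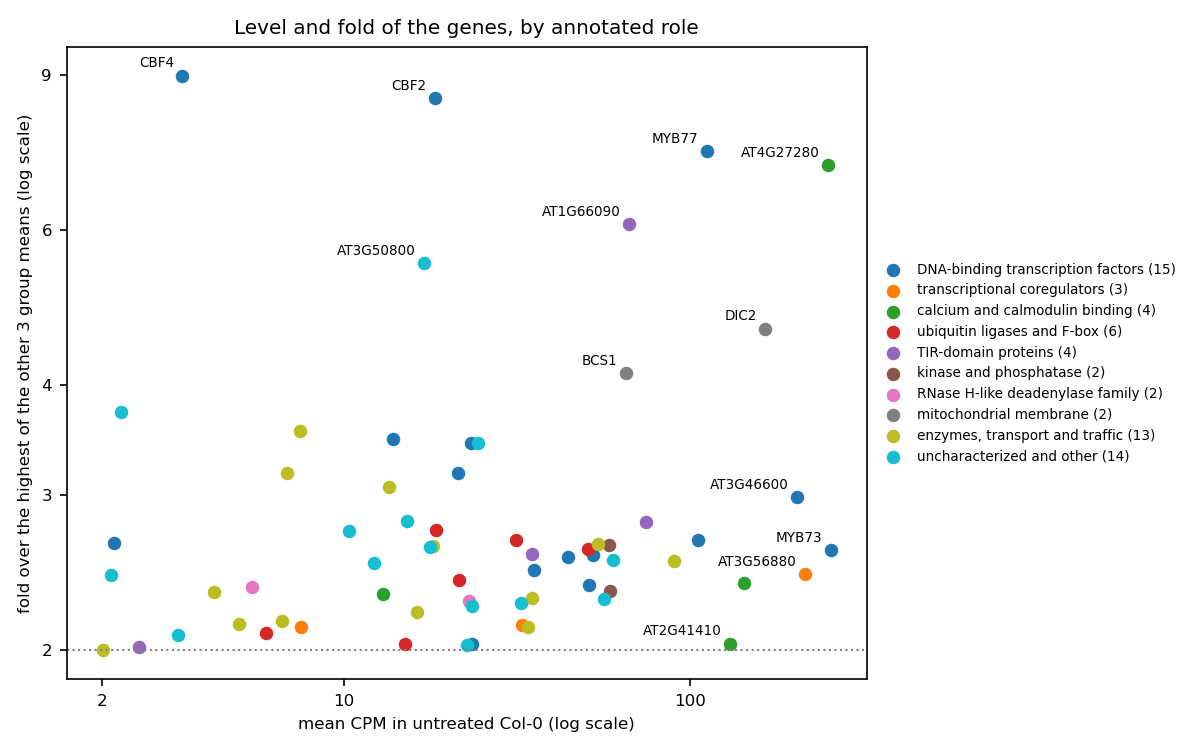
Fold of the untreated Col-0 mean over the highest other group mean (vertical axis, log scale) against the untreated Col-0 mean in CPM (horizontal axis, log scale) for the 65 genes, coloured by role, with the 2-fold limit of the rule as a dotted line. The 8 genes of 4-fold or more span levels from CBF4 at 3.42 CPM to AT4G27280 at 250.4 CPM, and the remaining 57 lie between 2.00 and 3.73.

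At the 2-fold limit, the genes just inside were AT4G27652 (2.03), AT1G72950 (2.02) and AT3G16175 (2.00). Those just outside, which met the other limits, were AT1G64065 (1.99), DOT3 (1.99) and AT5G35480 (1.97). AT5G35480 stood at 15.5 CPM in untreated Col-0 and at 5.495, 7.85 and 6.57 CPM in treated Col-0, untreated rdd and treated rdd.

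Gene structure was not used by the rule. Of 63 protein-coding members with a reference entry, 36 (57.1%) had a single coding exon, where 16.8% of 17405 coding genes at 2 CPM or more in untreated Col-0 did and 31.0% of the 29 genes highest in untreated rdd alone. The median coding length was 837 bases in the members and 1197 bases in those genes. Single-exon members included CBF2, CBF4, MYB77, AT4G27280, DIC2, BCS1, PUB25, PUB26 and SIB1. All 4 TIR-domain genes had several coding exons. By chromosome, 17 members lay on 1, 10 on 2, 17 on 3, 8 on 4 and 12 on 5. The closest neighbours were the uncharacterized genes AT4G27652 and AT4G27657, which lay 2527 bases apart with 1 gene between them, and the TIR genes AT1G72900 and AT1G72950, 10633 bases apart with 4 genes between them.

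The 250 bases upstream of the annotated gene start were searched on both strands in the 64 members with a reference entry. The W box core TTGAC was present in 41 of them (64.1%), where 44.6% of 17758 genes at 2 CPM or more and 44.5% of all 32834 genes held it. It occurred at least 2 times in 32.8% of the members and in 14.0% of the genes at 2 CPM or more. CGCG was present in 13 members (20.3%) and in 10.9% of those genes. The longer CGCGTT, known as the rapid stress response element and counted within CGCG too, was present in 6 (9.38%) and 2.86%. The 6 were CBF2, DIC2, AT1G66090, AT3G48650, AT4G27657 and AT1G61470. The 4 upstream sequences here come from members of the 7 highest folds and are shown because they hold both TTGAC and CGCG, read from the RefSeq genome TAIR10.1, 5′ to 3′ toward the gene, with TTGAC or its reverse complement GTCAA and CGCG in capitals.
CBF2 (chr4:13016236-13016485, minus strand): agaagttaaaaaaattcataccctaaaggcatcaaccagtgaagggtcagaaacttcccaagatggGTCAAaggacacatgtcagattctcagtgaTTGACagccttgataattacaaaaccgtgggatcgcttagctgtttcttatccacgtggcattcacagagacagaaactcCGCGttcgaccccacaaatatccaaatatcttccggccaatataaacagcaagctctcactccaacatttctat
MYB77 (chr3:18559327-18559576, minus strand): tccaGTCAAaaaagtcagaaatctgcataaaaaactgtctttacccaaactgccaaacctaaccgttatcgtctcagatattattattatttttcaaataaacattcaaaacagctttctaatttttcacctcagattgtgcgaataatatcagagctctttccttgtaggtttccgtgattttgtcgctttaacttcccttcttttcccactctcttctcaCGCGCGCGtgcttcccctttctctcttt
AT1G66090 (chr1:24601783-24602032, plus strand): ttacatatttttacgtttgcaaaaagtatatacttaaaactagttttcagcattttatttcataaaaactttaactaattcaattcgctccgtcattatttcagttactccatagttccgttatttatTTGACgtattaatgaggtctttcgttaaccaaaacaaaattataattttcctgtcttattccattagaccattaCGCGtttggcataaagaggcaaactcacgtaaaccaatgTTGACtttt
DIC2 (chr4:12686209-12686458, plus strand): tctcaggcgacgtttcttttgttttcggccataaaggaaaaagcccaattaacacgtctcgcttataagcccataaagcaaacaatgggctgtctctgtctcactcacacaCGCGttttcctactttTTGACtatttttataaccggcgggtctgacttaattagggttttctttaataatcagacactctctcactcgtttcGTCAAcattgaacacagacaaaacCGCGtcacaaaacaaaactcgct
CBF2 held a TTGAC core on each strand and a CGCG followed by tt, which makes CGCGTT. DIC2 held TTGAC on each strand and 2 CGCG, the upstream one within CGCGTT. MYB77 had 3 overlapping CGCG within 28 bases of its start and a reverse TTGAC at the far end of the window. AT1G66090 had 2 forward TTGAC, the nearer one 9 bases from the start. Of the other members of the 7 highest folds, AT4G27280 held TTGAC but no CGCG, and CBF4 and AT3G50800 held neither.

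Other motifs were less frequent. GCCGCC, the GCC box of ethylene response factors, was present in 4.69% of the members and 1.98% of the genes at 2 CPM or more, and CACGTG, the G box, in 12.5% and 7.34%. CCGAC, the core that CBF factors bind, was present in 12.5% and 13.0%. The evening element AAATATCT was present in 10.9% and 5.001%, and the telo box AAACCCTA in 3.12% and 3.59%. TTGAC was present in 44.8% and CGCGTT in none of the 29 genes highest in untreated rdd alone. By position, CGCG was found within 100 bases of the start in 15.6% of members and 5.43% of the genes at 2 CPM or more, and between 101 and 200 bases in 4.69% and 4.27%. These are shares of letters in a window, with no test, and say nothing of binding.

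**Figure D4:**
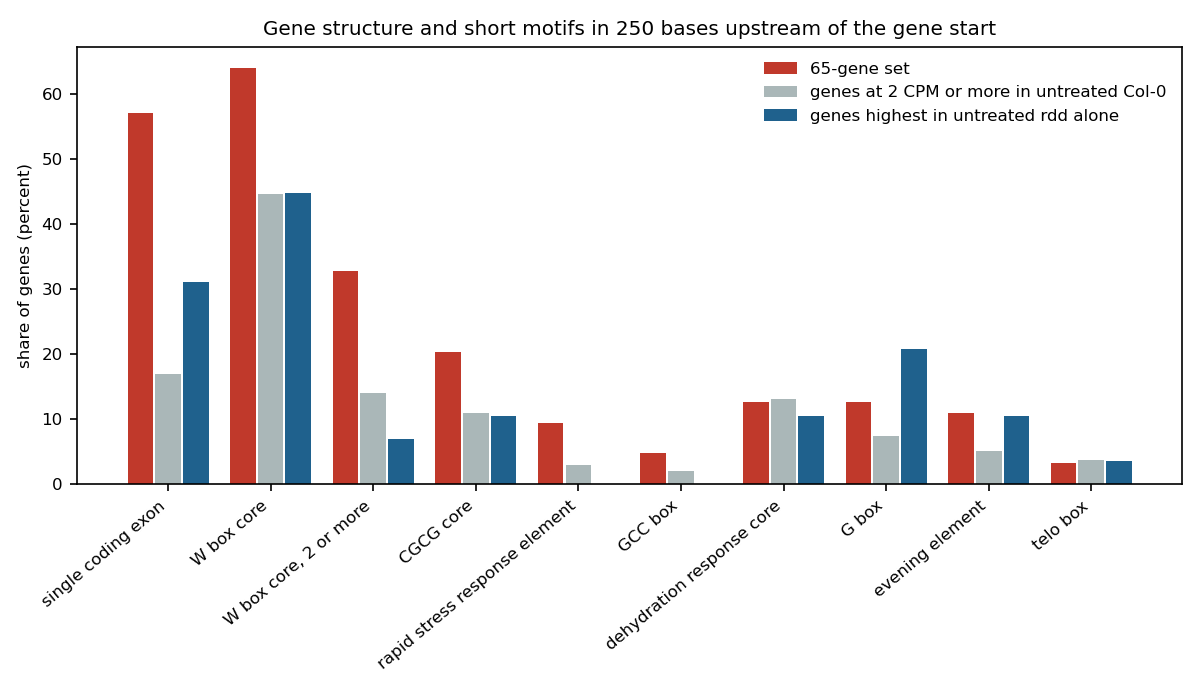
Share of genes (percent) with a single coding exon or with a short motif in the 250 bases upstream of the gene start, for the 65-gene set (red), all genes at 2 CPM or more in untreated Col-0 (grey) and the 29 genes highest in untreated rdd alone (blue). The red bars are tallest for the single coding exon (57.1% against 16.8% grey) and the W box core (64.1% against 44.6%), while the dehydration response core is about level (12.5% against 13.0%).

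The same rule turned to the other groups chose fewer genes. It found 5 genes highest in treated Col-0 alone, 29 in untreated rdd alone and 2 in treated rdd alone. With lowest in place of highest, it found 17 genes in untreated Col-0, 0 in treated Col-0, 11 in untreated rdd and 30 in treated rdd.

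Genes of the same responses that are not members were tested in edgeR's quasi-likelihood model over all 12 libraries, each other group against untreated Col-0. The 6 genes set aside by name, and AT1G72910 and AT1G72920, which the rule also leaves out and which missed its 1.5-times limit, were kept out of these counts (8 in all). Genes among the 90 that met the level and the fold but missed the 1.5-times limit were not kept out. SZF1, MPK3, NHL3, ACS11 and PRR9, named below, are such genes. Their tests repeat the values that the rule used and give no separate support. Over all 20651 genes tested, 16.9% were lower and 12.9% higher in treated Col-0, 23.0% and 20.9% in untreated rdd and 21.0% and 18.5% in treated rdd (Benjamini-Hochberg adjusted p under 0.05). The median log2 fold change of all genes was 0.00, 0.01 and 0.01. The 3 comparisons share the untreated Col-0 libraries, so their counts are not independent. The lists were chosen with earlier results of these data known. Their counts describe these libraries and are no separate support for a response.

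The listed touch and wound genes that are not members were mostly lower than in untreated Col-0 in each other group. Of 30 tested, 26 were lower and 2 higher in treated Col-0, 25 and 3 in untreated rdd and 29 and 0 in treated rdd (edgeR; 0 higher also at an unadjusted p under 0.05 and in DESeq2), with median log2 fold changes of -1.15, -1.17 and -1.94. SZF1, a zinc-finger gene of salt and immune responses, went from 539 ± 8.87 CPM in untreated Col-0 to 138 ± 2.70 in treated Col-0, 141 ± 13.7 in untreated rdd and 76.7 ± 9.37 in treated rdd, log2 fold changes of -2.07 ± 0.05, -2.02 ± 0.05 and -2.94 ± 0.06 (standard error; edgeR, highest adjusted p = 1.5e-26). TCH4, which encodes a wall-modifying enzyme induced by touch, stood at 613 ± 17.2, 317 ± 5.18, 246 ± 6.03 and 66.5 ± 2.13 CPM in those groups and was lower in all 3 comparisons (edgeR, highest adjusted p = 8.7e-24). The calmodulin-like gene TCH3 did not share the pattern, at 547 ± 14.7, 427 ± 14.9, 628 ± 19.0 and 205 ± 5.21 CPM, and was slightly higher in untreated rdd (log2 0.11 ± 0.04; edgeR, adjusted p = 0.0133). SZF1 and TCH4 were lowest in treated rdd by mean. Of the 65 members, 25 were lowest in treated rdd, 21 in treated Col-0 and 19 in untreated rdd. Among the members the rule keeps these 3 groups within 1.5 times of one another. MYB77, MYB73, AZF2 and CAF1B are the members on this list of 34 genes.

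Genes of pattern-triggered immunity, the response to microbial surface molecules, were lower in 16 and higher in 2 of 27 tested non-members in treated Col-0, 14 and 7 in untreated rdd and 18 and 2 in treated rdd (edgeR). MPK3, a MAP kinase of this pathway, stood at 319 ± 8.41 CPM in untreated Col-0, 141 ± 6.60 in treated Col-0, 122 ± 1.93 in untreated rdd and 84.6 ± 4.18 in treated rdd (log2 -1.28 ± 0.04, -1.48 ± 0.04 and -2.04 ± 0.04; edgeR, highest adjusted p = 2.7e-24). NHL3 stood at 347 ± 10.7, 173 ± 5.16, 133 ± 10.01 and 115 ± 10.15 CPM and the receptor-like kinase gene SOBIR1 at 186 ± 1.89, 141 ± 3.19, 137 ± 3.76 and 94.5 ± 3.12, both lower in all 3 comparisons (edgeR, highest adjusted p = 2.8e-13). AP2C1, ATL2 and SIB1 are the members on this list.

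For salicylic acid, a hormone of defence against biotrophic microbes, 5 of 19 non-members were lower and 2 higher in treated Col-0, 11 and 0 in untreated rdd (1 higher at an unadjusted p under 0.05, 0 in DESeq2) and 9 and 3 in treated rdd (edgeR). The salicylic acid receptor gene NPR3 stood at 95.7 ± 4.70, 50.7 ± 1.24, 60.4 ± 2.20 and 41.2 ± 1.53 CPM, lower in all 3 (edgeR, highest adjusted p = 8.5e-16). WRKY46 is the member on this list. EDS1, a hub of TIR-dependent immunity, stood at 49.7 ± 2.09 CPM in untreated Col-0 and 50.4 ± 1.16 in treated Col-0 (edgeR, adjusted p = 0.296), and was lower in untreated rdd and treated rdd (log2 -0.49 ± 0.06 and -0.62 ± 0.06; edgeR, adjusted p = 1.1e-08 and 4.6e-11).

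The CBF regulon of cold acclimation, to which CBF2 belongs on this list, was mostly higher in treated Col-0 and mostly lower in both rdd groups. In treated Col-0, 6 of 9 non-members were higher and 3 lower, in untreated rdd 2 higher and 5 lower and in treated rdd 0 higher and 6 lower (edgeR; 0 higher also at an unadjusted p under 0.05 and in DESeq2), with median log2 fold changes of 0.51, -0.41 and -1.22. COR78, a target of CBF factors, rose from 73.7 ± 1.40 CPM in untreated Col-0 to 197 ± 1.99 in treated Col-0 and was at 134 ± 11.4 in untreated rdd and 59.3 ± 4.49 in treated rdd (log2 1.32 ± 0.05, 0.77 ± 0.05 and -0.44 ± 0.05; edgeR, highest adjusted p = 1.5e-08). COR47 was likewise higher in treated Col-0 and untreated rdd, at 371 ± 5.94, 567 ± 22.4 and 644 ± 9.41 CPM (edgeR, highest adjusted p = 2.9e-14). It stood at 411 ± 12.003 CPM in treated rdd (edgeR, adjusted p = 0.658). COR15B stood at 38.3 ± 1.29, 51.8 ± 2.40, 30.8 ± 2.46 and 35.003 ± 1.99 CPM, higher in treated Col-0 and lower in untreated rdd and treated rdd (log2 0.33 ± 0.06, -0.41 ± 0.06 and -0.26 ± 0.06; edgeR, highest adjusted p = 7.5e-04).

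On the list of indole glucosinolate and camalexin synthesis, which holds MYB51, 1 of 9 non-members was lower and 3 higher in treated Col-0, 4 and 2 in untreated rdd and 5 and 1 in treated rdd (edgeR), with median log2 fold changes of -0.04, -0.16 and -0.60. CYP83B1, an enzyme of indole glucosinolate synthesis, stood at 249.8 ± 2.37, 343 ± 5.59, 238 ± 7.90 and 179 ± 10.6 CPM (log2 0.35 ± 0.04, -0.16 ± 0.04 and -0.60 ± 0.04; edgeR, highest adjusted p = 7.5e-04). Ethylene synthesis, a list with no member, had 2 of 8 genes lower and 3 higher in treated Col-0, 1 and 4 in untreated rdd and 1 and 2 in treated rdd (edgeR), with medians of 0.36, 0.39 and 0.00. ACO4, which encodes an enzyme of the last step of ethylene synthesis, stood at 273 ± 4.66, 353 ± 6.92, 388 ± 9.03 and 416 ± 37.2 CPM and was higher in all 3 (edgeR, highest adjusted p = 6.5e-06). ACS11, of the step before it, was lower in all 3, at 13.6 ± 0.957, 0.436 ± 0.126, 5.51 ± 0.685 and 0.307 ± 0.130 CPM (edgeR, highest adjusted p = 1.1e-11).

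Read against annotation classes, the members were 2 of 18 VQ-motif genes at 2 CPM or more in untreated Col-0 (11.1%), 3 of 50 NAC factors (6%), 3 of 61 genes of the ethylene response factor family (4.92%), 3 of 84 MYB factors (3.57%) and 4 of 136 TIR and NBS-LRR genes (2.94%), where the rule took 0.398% of all genes at that level. That 0.398% counts the 6 genes set aside by name, which the members leave out. WRKY factors held 1 member of 45 (2.22%), and 4 met the rule before the setting aside. Calcium sensors and calmodulin-binding genes held 4 of 135 (2.96%), and 5 met it before. No gene met the rule in the classes of receptor-like kinases and receptor-like proteins (304 genes), transporters (505) and bHLH and bZIP factors (120). The classes were set by words in the annotation, and DIC2 and AT5G52760 fell outside the transporter class. At a share of 0.398%, classes of this size would hold few members or none, so nothing is read from their absence. The classes were chosen with earlier results of these data known, so nothing is read from the higher shares either.

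Families of the members differed in how often their other genes were lower, where 16.9%, 23.0% and 21.0% of all genes were lower in treated Col-0, untreated rdd and treated rdd. Of 166 TIR and NBS-LRR genes other than members, 63 were lower and 6 higher in treated Col-0, 61 and 33 in untreated rdd and 69 and 11 in treated rdd (edgeR), so that 38.0%, 36.7% and 41.6% were lower. Of 58 WRKY factors, 9 were lower and 6 higher, 12 and 16, and 14 and 10 in the same order, which puts 15.5%, 20.7% and 24.1% lower. With WRKY46, WRKY33, WRKY70 and WRKY53 counted too, 13, 16 and 18 of 62 were lower. The shares over all genes keep the members and left-out genes that the family shares lack. MYB factors (119 tested) had 27 lower and 15 higher, 30 and 20, and 32 and 19. NAC factors (71 tested) had 11 and 5, 11 and 12, and 12 and 10, and the ethylene response factor family (79 tested) had 23 and 17, 20 and 21, and 27 and 24. Among calcium sensors and calmodulin-binding proteins (144 tested), 35 were lower and 16 higher, 41 and 43, and 49 and 34. VQ-motif genes (22 tested) had 8 lower and 0 higher (edgeR; 1 higher at an unadjusted p under 0.05 and 0 in DESeq2), 6 and 1, and 8 and 2, so that 36.4%, 27.3% and 36.4% were lower.

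**Figure D5:**
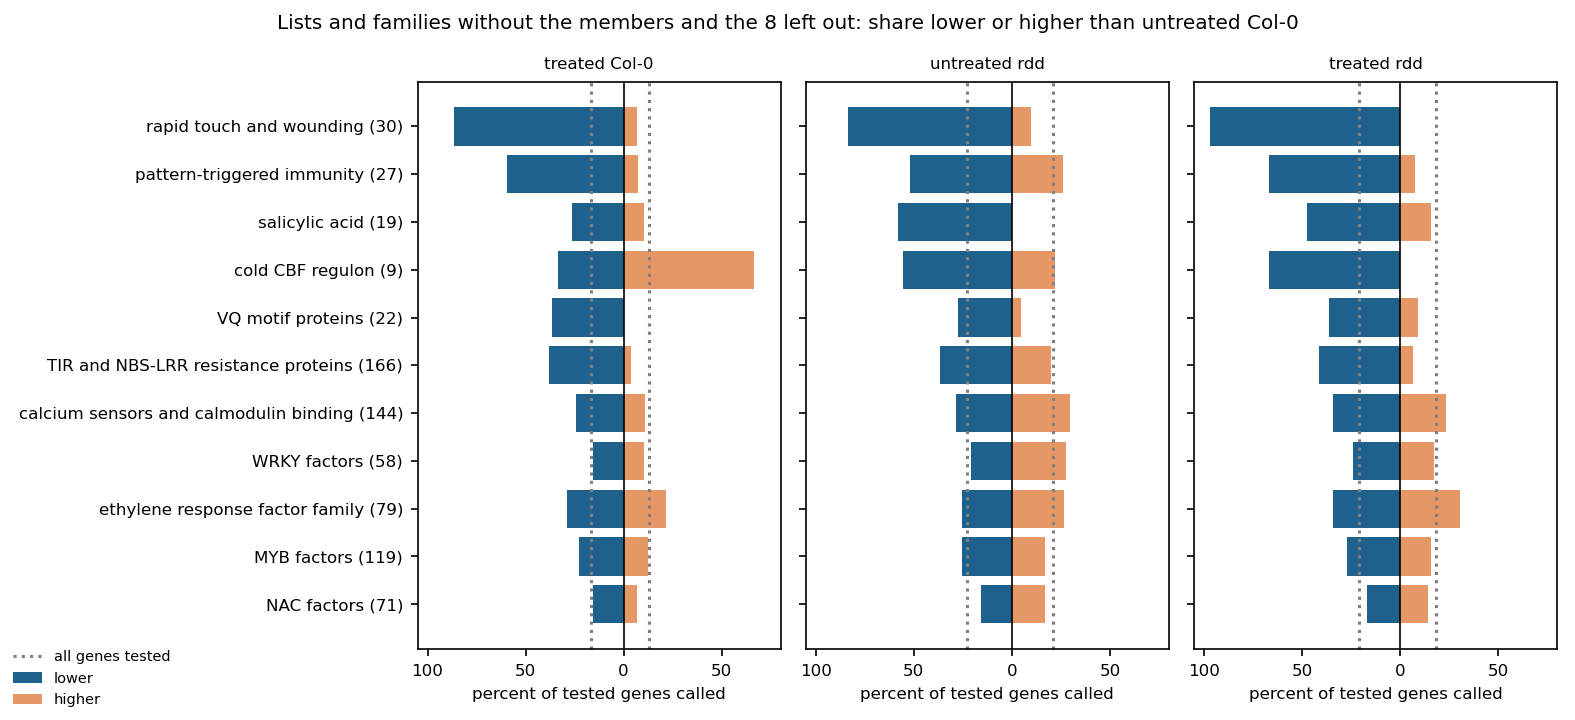
Percent of tested genes lower (blue, to the left) or higher (orange, to the right) than in untreated Col-0 at an edgeR adjusted p under 0.05, for gene lists and families without the 65 genes and the 8 left out, in 3 comparisons that share the untreated Col-0 libraries. Dotted lines give the share over all 20651 genes tested (16.9% and 12.9% in the left panel). The touch and wounding bars reach far beyond them in all 3 panels, and the lower bars of TIR and NBS-LRR genes (38.0%, 36.7% and 41.6%) also pass them in all 3. Those of WRKY factors (15.5%, 20.7% and 24.1%) stay near them, after removal of genes chosen for being lower, which the lines keep.

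Circadian clock genes, which read the time of day, were mostly lower outside untreated Col-0. Calmodulin-binding transcription activators, which read calcium, were mostly lower in both treated groups, by small amounts, and 3 of 6 were lower in untreated rdd. Over all genes tested, 16.9%, 23.0% and 21.0% were lower and 12.9%, 20.9% and 18.5% higher in treated Col-0, untreated rdd and treated rdd. CAMTA3, the activator gene of highest level, stood at 109 ± 6.13 CPM in untreated Col-0 and 111 ± 2.33 in treated Col-0 (edgeR, adjusted p = 0.112). All 6 calmodulin-binding transcription activators were lower in treated rdd, 5 in treated Col-0 and 3 in untreated rdd, with 0 higher (edgeR; 0 also at an unadjusted p under 0.05 and in DESeq2), and median log2 fold changes of -0.36, -0.18 and -0.08. DESeq2 called 6, 4 and 2 of them lower in the same order. Of 12 circadian clock genes, 8 were lower and 1 higher in treated Col-0, 8 and 1 in untreated rdd and 10 and 0 in treated rdd (edgeR; 0 higher also at an unadjusted p under 0.05 and in DESeq2), with medians of -0.21, -0.43 and -0.39. DESeq2 called 6, 8 and 10 of these clock genes lower in that order. TOC1, PRR7 and LUX had the highest levels on the list. In the same order, TOC1 (log2 -0.11, -0.04 and -0.28) and LUX (-0.10, 0.04 and -0.24) moved little, and PRR7 by -0.50, -0.38 and -0.96. PRR5 was higher in untreated rdd (log2 0.39 ± 0.05, edgeR, adjusted p = 5.3e-08) and PRR3 in treated Col-0 (0.16 ± 0.05, edgeR, adjusted p = 0.0199). The morning genes PRR9 and CCA1 moved by more than the list medians, and so did LHY. PRR5, PRR3, PRR9, CCA1 and LHY were named after their values were seen. PRR9 stood at 3.34 ± 0.393, 0.772 ± 0.134, 0.506 ± 0.202 and 0.672 ± 0.113 CPM (log2 -2.21 ± 0.26, -2.80 ± 0.28 and -2.42 ± 0.26; edgeR, highest adjusted p = 1.2e-08). CCA1 stood at 29.0 ± 0.600, 18.2 ± 0.927, 11.3 ± 0.882 and 11.8 ± 0.578 CPM (log2 -0.78 ± 0.07, -1.44 ± 0.08 and -1.42 ± 0.08; edgeR, highest adjusted p = 4.8e-11). LHY, a close relative of CCA1, stood at 18.8 ± 0.325, 9.48 ± 0.519, 10.8 ± 0.882 and 14.4 ± 0.878 CPM and was lower in all 3 (edgeR, highest adjusted p = 4.2e-06). The clock genes summed to between 672 and 719 CPM in untreated Col-0 and to between 529 and 650 CPM elsewhere. Their part in the members' levels was not tested.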

How the data were processed

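The deposited table holds whole-number read counts per gene for 12 libraries, and no column of per-sample values was left unused. Per the submitters' processing notes, Trimmomatic 0.36, HISAT2 2.1.0, HTSeq 0.9.1 and the TAIR10 build were used. Neither the strand option of the counting nor the release of the gene models is stated in these sources. Per the labels' protocols, libraries came from 1 μg of total RNA with a kit that keeps strand.

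CPM were computed from the deposited counts and column sums. The members, gene lists, classes and tests were chosen with earlier results of these data known. Named for values were the 10 members of highest level, the 10 of highest fold, the 3 of highest fold in each list or class with 3 or more members, the 3 genes on each side of the fold limit, and at most 3 non-members per list, by level. The remaining members are named by role, after their values were seen. The root marker and clock genes RHD6, IRT1, PRR9, CCA1, LHY, PRR5 and PRR3 were also named after their values were seen, outside these limits.

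The 3 comparisons used edgeR 4.0.16 in R 4.3.3 (filterByExpr, TMM, quasi-likelihood F test, 4 group means, 12 libraries, 8 residual degrees of freedom, Benjamini-Hochberg adjustment over 20651 genes). Standard errors are the log2 fold change divided by the root of F. DESeq2 1.42.0 was an alternative. The edgeR step was tested on simulated counts with 200 changed genes. The labels call the replicates biological, but name no separate pots or days, so the spread between them may be partly technical. Same-numbered replicates did not deviate together (correlations from -0.04 to 0.02). Replicate pairs differed by more than counting noise (chi-square per degree of freedom 1.60 to 2.25 in 3 groups and 3.37 to 5.42 in treated rdd), so each library was counted once.

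Names, exons and upstream sequence come from the RefSeq annotation and genome TAIR10.1, which held 32835 of the 33602 gene IDs. Near-identical copies (at least 90% identity over 100 bases) were sought with BLAST+ 2.17.0.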

Additional observations from a re-analysis of the deposited data

How the results depend on the processing

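The 65 genes became 77 with TMM factors and 81 with median-ratio factors, 63 of the 65 among them in both cases, and between 62 and 71 when any of the 12 libraries was left out. A 1.5-fold limit gave 161 genes and a 3-fold limit 16. A tighter limit on the spread of the other groups gave 30 genes, and no such limit 155. Asking, after the data were seen, that every untreated Col-0 library lie 2-fold above all 9 others left 42. The 3-fold limit lowered the share with TTGAC to 50%, and windows of 500 and 1000 bases, also chosen after the data were seen, raised it to 79.7% and 95.3%, beside 66.8% and 87.9% of the genes at 2 CPM or more, a smaller difference than in 250 bases, and that with CGCG in 1000 bases to 39.1%, beside 33.4%. Genes highest in treated Col-0 alone were 2 with either other scaling, and genes lowest in untreated Col-0 alone 10. Genes highest in treated rdd alone ranged from 2 to 4 with a library left out, 4 being without treated rdd replicate 2. These causes were not tested, beyond what each limit or window does by its construction. No fold of the 38 members named by level, fold or class reversed, and without a library they were 0.838 to 1.13 times their reported value. The replicate block gave 3429 lower and 2605 higher genes in treated Col-0, 4704 and 4272 in untreated rdd, and 4304 and 3740 in treated rdd, against 3484 and 2661, 4743 and 4319, and 4332 and 3823 without the pairing. DESeq2 gave 2930 and 2041, 4181 and 3551, and 3828 and 2831. Members under 10 CPM, 15 of the 65, rest on as few as 114 counts over the untreated Col-0 group.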

Other observations

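The opposite pattern, lowest in untreated Col-0 alone by the same limits, was shown by 17 genes, which the same values chose and no test supports. Transport proteins and enzymes of glucoside metabolism were among them. The major facilitator genes AT4G34950 and AT2G16660 stood at 139 ± 8.95 and 142 ± 2.80 CPM in untreated Col-0. AT4G34950 stood at 312 ± 5.18 CPM in treated Col-0, 341 ± 7.66 in untreated rdd and 379.5 ± 8.998 in treated rdd, and AT2G16660 at 343 ± 6.22, 286 ± 14.5 and 334 ± 21.1 CPM in the same order. The beta-glucosidase genes BGLU34 and BGLU35 lay at 3.92 ± 0.0749 and 3.08 ± 0.280 CPM in untreated Col-0 and between 9.48 and 14.3 CPM by group mean elsewhere. The cytokinin glucosyltransferase gene UGT85A1 stood at 37.4 ± 1.195 CPM in untreated Col-0 and at 94.7 ± 1.92, 125 ± 4.93 and 100.4 ± 7.51 CPM in treated Col-0, untreated rdd and treated rdd. The auxin-responsive SAUR-like genes AT4G38840 and AT4G34790 had 20.1 ± 1.71 and 3.50 ± 0.350 CPM in untreated Col-0, beside group means of 44.3 to 46.8 and of 7.31 to 9.12 CPM. With TMM factors in place of total counts, 10 genes met these limits.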
